A study of Sus scrofa with 14 samples.

Results

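Cathepsins B, C, D, L and S, the lysosomal membrane proteins LAMP1 and LAMP2 and the transcription factor TFEB were followed through the mammary gland and milk of the pig. The genes were taken by symbol from a fixed list of 9 cathepsin and lysosome genes, 8 of which were found among the 30071 gene identifiers of the deposited count tables. CTSK was not analysed here. Whole mammary gland was profiled as single nuclei in 10 sows, 2 at each of 5 stages, namely day 90 of gestation (G90), days 0 and 20 of lactation (L0 and L20) and days 2 and 7 of natural involution (PI2 and PI7). Spatial transcriptomics covered 1 gland section each at G90 and PI2, and the cells of 1 milk sample of L0 (colostrum) and 1 of L20 (mature milk) were sequenced singly. The labels give mammary gland as the tissue of these cell libraries too, and they are called milk here from the methods of the study. The labels name no treatment and no genotype in any group. The nuclei of a gland came from 1 piece of snap-frozen tissue, so each level speaks for that piece.

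Cathepsins are proteases of the lysosome, the acidic compartment in which cells degrade proteins, lipids and sugars taken up from outside or delivered by autophagy. CTSB, CTSC, CTSL and CTSS are cysteine proteases, CTSD is an aspartic protease, LAMP1 and LAMP2 are the heavily glycosylated proteins of the lysosomal membrane, and TFEB drives transcription of lysosomal and autophagy genes through the CLEAR motif. In the mammary gland, lysosomal proteases are best known from involution, when milk-secreting epithelial cells die and are cleared, and macrophages are a cell type rich in lysosomes.

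The RefSeq annotation of Sscrofa11.1, matched by symbol, placed CTSB (ENSSSCG00000023666 in the count tables) at chr14:15014139-15035081, CTSC (ENSSSCG00000014924) at chr9:21726628-21761796, CTSD (ENSSSCG00000040793) at chr2:1188548-1197642 and CTSL (ENSSSCG00000010948) at chr10:27668523-27674705, all on the minus strand. CTSS (ENSSSCG00000006648) lies at chr4:98415273-98442952 and LAMP1 (ENSSSCG00000009555) at chr11:78600818-78617587, both on the plus strand. LAMP2 (ENSSSCG00000012604) lies at chrX:98586718-98623939 and TFEB (ENSSSCG00000001621) at chr7:36870240-36920887, both on the minus strand. None of these 8 genes overlaps another annotated gene.

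The core of the motif that TFEB and its relatives bind is CACGTG, which reads the same on both strands. Within the 300 bases from 250 before to 50 after the annotated gene start, CACGTG was present in 1548 of 19534 RefSeq promoters (7.92%). Among the genes described here it was present in those of LAMP1 and LAMP2. LAMP1 held 3 copies, which began 248, 177 and 148 bases before the gene start, and LAMP2 held 1, which began 45 bases before it. The longer TCACGTGA, which contains CACGTG, was present in 221 promoters (1.13%) and, among these genes, only in LAMP1. The full 10-base CLEAR motif was present in 90 promoters (0.461%) and in none of these genes. A match is a description of these windows alone. Both windows are printed from 5′ to 3′ on the strand of the gene, with CACGTG in capitals, because these are the genes of the set that hold it. The LAMP1 window is chr11:78600568-78600867 on the plus strand, with 78.3% G or C, and the LAMP2 window is chrX:98623890-98624189 on the minus strand, with 56.3%.
LAMP1: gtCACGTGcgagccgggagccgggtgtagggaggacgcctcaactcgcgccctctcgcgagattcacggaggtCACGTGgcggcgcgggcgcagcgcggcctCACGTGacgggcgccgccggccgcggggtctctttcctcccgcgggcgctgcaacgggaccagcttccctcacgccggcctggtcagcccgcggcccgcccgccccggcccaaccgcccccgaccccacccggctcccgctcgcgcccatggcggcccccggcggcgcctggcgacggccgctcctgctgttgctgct
LAMP2: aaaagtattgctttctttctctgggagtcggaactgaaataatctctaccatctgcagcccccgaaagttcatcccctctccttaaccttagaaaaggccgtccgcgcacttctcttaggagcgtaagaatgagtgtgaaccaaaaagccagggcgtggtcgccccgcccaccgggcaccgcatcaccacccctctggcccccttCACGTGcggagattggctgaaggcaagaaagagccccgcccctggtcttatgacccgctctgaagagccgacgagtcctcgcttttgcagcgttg

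The gland libraries held between 9332 and 18693 kept nuclei and between 18700704 and 53161349 UMIs, counted as distinct RNA molecules. Levels are given as UMIs of a gene per 1000000 UMIs (CPM) of the nuclei in question. The share of UMIs from caseins, the main milk proteins, was 1.07% and 0.774% in the L0 glands but 0.0721% and 0.0106% in the L20 glands, below both G90 glands (0.121% and 0.806%) and below the highest of the involution glands (0.0114% to 0.0909%). The L20 glands thus held less casein RNA than the L0 and G90 glands, and the involution comparisons of whole glands, of epithelial-gated nuclei and between classes are given with and without them. These values do not settle their stage label, so changes from or to L20 are differences from the libraries labelled L20. L20 replicate 2 also held the lowest summed level of the 12 epithelial markers (1078 CPM, against 2797 to 5689 CPM in the other glands). It had the highest levels of the 11 macrophage markers (1648 CPM, against 66.6 to 644 CPM) and of the 8 fibroblast markers (5539 CPM, against 70.0 to 1338 CPM). Of its kept nuclei 1.36% were adipocyte-gated (206 nuclei), against 1 to 10 nuclei in each other gland. The study, by its own classes, gave adipocytes their lowest share at L20. Any 2 gland libraries shared at most 205 barcodes, 1.23% of the smaller library.

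Nuclei were placed in a class when they held at least 2 different markers of that class and at most 1 of each other class. Of 126833 kept nuclei, 62.9% were gated in this way, 25.4% held markers of several classes and entered no class, and 11.6% held too few markers. Macrophage-gated nuclei were few, with 166 and 89 nuclei in the G90 glands, 40 and 35 nuclei in the L0 glands, 283 and 1311 nuclei in the L20 glands, 94 and 125 nuclei in the PI2 glands and 553 and 249 nuclei in the PI7 glands. As a check on the macrophage gate, 5 genes of the list VSIG4, F13A1, STAB1, CYBB, TYROBP and FCER1G, kept out of the gates, were summed. They reached between 828 and 2032 CPM in macrophage-gated nuclei and between 7.03 and 133 CPM in epithelial-gated nuclei.

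Macrophage-gated nuclei had the higher level of nearly every gene examined when set against epithelial-gated nuclei of the same sows. CTSB, CTSC, CTSD, CTSL, CTSS, LAMP1 and TFEB were called higher, 7 of 8, and none was called lower. A call needed an adjusted p under 0.05 and a log2 difference over 1, from edgeR's quasi-likelihood test with the sow as a block and Benjamini-Hochberg adjustment over all 11910 genes. By the same rule 28.3% of all genes tested were called in this comparison, 12.6% as higher and 15.8% as lower in macrophage-gated nuclei.

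CTSS, the protease that trims the invariant chain for antigen presentation, ranged from 699 CPM over a median of 889 CPM to 1502 CPM in the macrophage-gated nuclei of the 10 glands. In epithelial-gated nuclei it ranged from 35.6 CPM over a median of 68.5 CPM to 147 CPM. All 10 glands had the higher CTSS level in macrophage-gated nuclei, and the ranges of the 2 classes did not overlap. The difference was 3.56 ± 0.16 on the log2 scale (SE, n = 10 sows), with an adjusted p of 1.9e-19 by edgeR, the lowest p of all 11910 genes.

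CTSL, an endopeptidase with broad specificity, was at 46.8 and 179 CPM at G90, 59.5 and 43.0 CPM at L0, 158 and 101 CPM at L20, 25.6 and 33.6 CPM at PI2 and 15.9 and 68.3 CPM at PI7 in macrophage-gated nuclei. Epithelial-gated nuclei ranged from 1.18 to 13.4 CPM, so that the 2 classes did not overlap. The log2 difference was 3.60 ± 0.33, with an adjusted p of 6.5e-12 by edgeR. CTSL passed the filter on low counts of the class comparisons through its macrophage levels, as most sums of the other classes were too low for it. Over 19 settings, which include no such filter, the log2 difference ran from 3.305 to 3.917. The macrophage levels of L0 rested on 3 and 2 UMIs.

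CTSD ranged from 171 to 2014 CPM in macrophage-gated nuclei, with a median of 562 CPM. Epithelial-gated nuclei ranged from 9.93 to 189.5 CPM with a median of 56.1 CPM, and CTSD was higher in macrophage-gated nuclei of all 10 glands. The log2 difference was 3.58 ± 0.22 with an adjusted p of 1.4e-16 by edgeR. CTSB, which can act as an endopeptidase or as a carboxydipeptidase, lay between 408 and 1032 CPM in macrophage-gated and between 12.3 and 272 CPM in epithelial-gated nuclei, with no overlap, and differed by 2.66 ± 0.28 on the log2 scale (adjusted p = 2.0e-10 by edgeR).

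CTSC, the dipeptidyl peptidase that activates the serine proteases of granulocytes and lymphocytes, differed less, by 1.52 ± 0.28 on the log2 scale (adjusted p = 2.0e-05 by edgeR). It was higher in macrophage-gated nuclei of 9 of 10 glands. In PI2 replicate 2 epithelial-gated nuclei were at 569 CPM and macrophage-gated nuclei at 241 CPM. Without the sow term the CTSC difference was 0.96 and was no longer called. LAMP1 differed by 1.69 ± 0.24 on the log2 scale (adjusted p = 2.3e-07) and TFEB by 1.81 ± 0.24 (adjusted p = 3.4e-08), both by edgeR and both in 10 of 10 glands. TFEB was at 39.7 to 126 CPM in macrophage-gated and at 11.5 to 45.3 CPM in epithelial-gated nuclei, so the ranges overlapped slightly.

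LAMP2, a receptor of chaperone-mediated autophagy in one of its splice forms, was the exception. Its log2 difference was 0.78 ± 0.22 (adjusted p = 0.0028 by edgeR), so that it passed the p threshold but not the fold limit, although macrophage-gated nuclei were higher in 10 of 10 glands. Between macrophage-gated and fibroblast-gated nuclei LAMP2 differed by -0.11 ± 0.23, with 4 of 10 glands higher in macrophage-gated nuclei (adjusted p = 0.77 by edgeR).

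**Figure D1:**
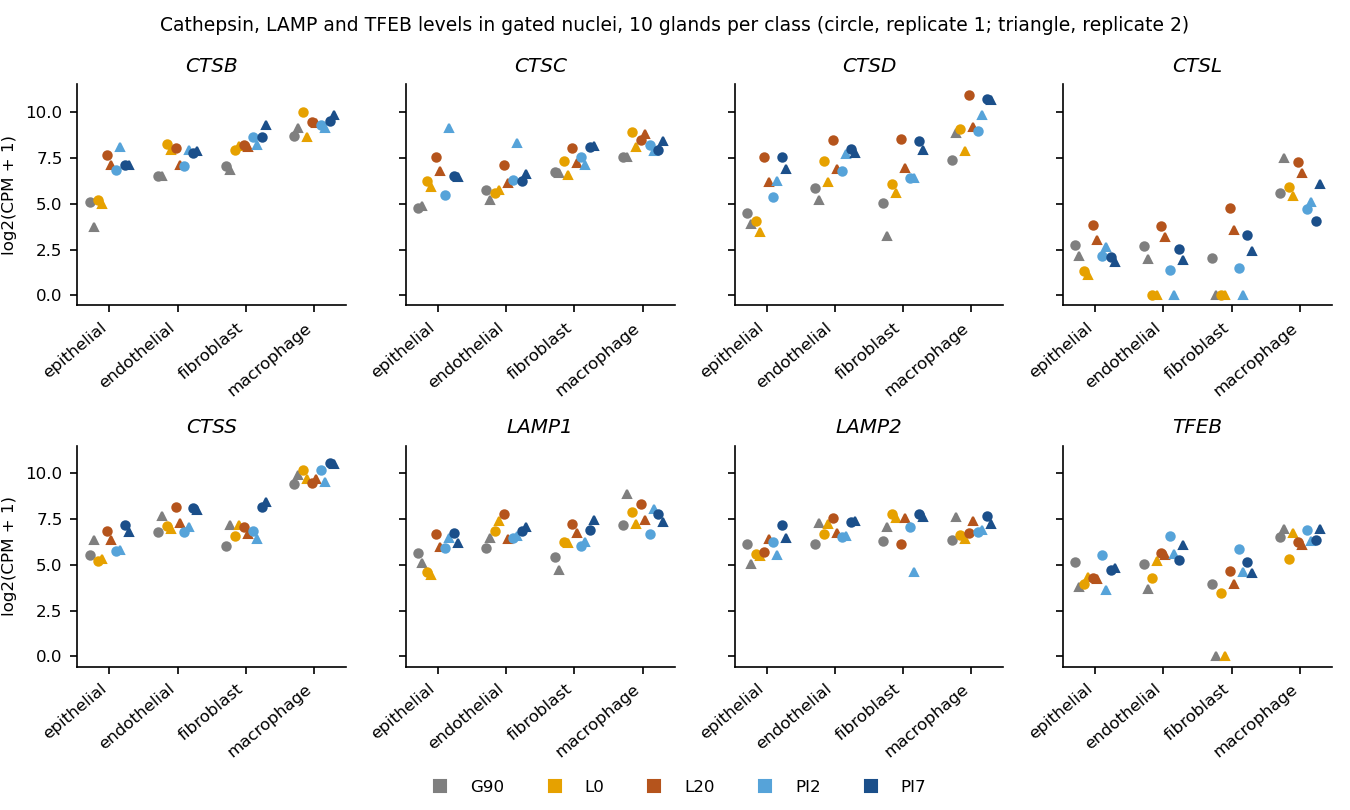
Each panel shows 1 gene on a log2(CPM + 1) axis in 4 gated classes, with 1 point per gland coloured by stage. CTSB, CTSL and CTSS of macrophage-gated nuclei lie above the epithelial-gated nuclei of every gland, whereas the LAMP2 points of all 4 classes overlap.

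Against fibroblast-gated nuclei, macrophage-gated nuclei had higher CTSB (log2 difference 1.15 ± 0.27), CTSD (2.72 ± 0.22), CTSL (3.28 ± 0.37), CTSS (2.77 ± 0.16), LAMP1 (1.23 ± 0.26) and TFEB (2.02 ± 0.27), 6 of 8 called, where 23.5% of all genes were called and 10.4% were called higher. CTSS did not overlap between these classes, with at most 341 CPM in fibroblast-gated nuclei. Without G90 replicate 2, CTSB and LAMP1 were no longer called, which left 4 genes. CTSC differed by 0.65 ± 0.28 and was not called (adjusted p = 0.066 by edgeR).

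Fibroblast-gated nuclei differed from epithelial-gated nuclei in CTSB alone among the called genes, by 1.51 ± 0.27 on the log2 scale (adjusted p = 1.0e-05 by edgeR), where 25.2% of all genes were called and 13.3% were called higher. CTSC, CTSD, CTSS and LAMP2 had adjusted p-values between 4.1e-05 and 0.0083 by edgeR with log2 differences between 0.79 and 0.90, under the fold limit. The number called moved between 1 and 4 when single glands were left out, and was 4 without L20 replicate 1 or without PI2 replicate 2. CTSL had no UMI in fibroblast-gated nuclei of 4 glands, where a count of 0 allowed up to 8.64 CPM at G90 replicate 2, 15.3 and 71.5 CPM at L0 and 14.2 CPM at PI2 replicate 2.

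Endothelial-gated nuclei exceeded epithelial-gated nuclei in CTSD, by 1.28 ± 0.21 on the log2 scale (adjusted p = 2.3e-06), and in CTSS, by 1.14 ± 0.15 (adjusted p = 4.2e-08), by edgeR and in 10 of 10 glands each. These were 2 of 8 genes, where 26.4% of all genes were called and 13.8% were called higher. Without PI2 replicate 2, CTSB and LAMP1 were also called, which made 4. Without the sow block CTSD was not called (adjusted p = 0.126 by edgeR), and with no filter on low counts CTSS was at 0.89, under the fold limit. The gate let endothelial-gated nuclei hold 1 macrophage marker, and the part of macrophage RNA in these levels was not tested.

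Among the classes present in all 10 glands, mean CTSS was 1004 ± 303 CPM in macrophage-gated nuclei (SD, n = 10), followed by 179 ± 68.2 CPM in endothelial-gated nuclei, and was lowest, at 76.5 ± 37.5 CPM, in epithelial-gated nuclei. The endothelial, T/NK-gated (158 ± 94.0 CPM) and fibroblast-gated means (152 ± 90.8 CPM) lay within 1 SD of each other. CTSC had a different order, with T/NK-gated nuclei (235 ± 85.3 CPM) next to macrophage-gated nuclei (309 ± 104 CPM) and within the spread of them. CTSD was at 881 ± 666 CPM in macrophage-gated nuclei, and the T/NK-gated (171 ± 164 CPM), endothelial-gated (161 ± 104 CPM) and fibroblast-gated (141 ± 132 CPM) means that followed lay within each other's spread. TFEB was at 90.9 ± 27.8 CPM in macrophage-gated, 44.2 ± 24.3 CPM in endothelial-gated, 22.8 ± 10.8 CPM in epithelial-gated and 20.3 ± 17.2 CPM in fibroblast-gated nuclei, and the last 2 lay within their spread. Mural-gated nuclei, at least 20 of them in 4 glands, had 95.9 ± 40.4 CPM of TFEB on 26 UMIs in all. B/plasma-gated nuclei, also with at least 20 in 4 glands, had 311 ± 260 CPM of CTSS on 134 UMIs. Their CTSD was at 320 ± 256 CPM on 135 UMIs, so both means were next to those of macrophage-gated nuclei. LAMP2 means of fibroblast-gated (145 ± 68.5 CPM), macrophage-gated (131 ± 43.4 CPM) and endothelial-gated nuclei (129 ± 40.2 CPM) did not separate.

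Which class held the UMIs of each gene was taken among gated nuclei, which had between 31.9% (CTSD) and 53.9% (CTSC) of a gene's UMIs in all kept nuclei. Macrophage-gated nuclei made up 4.11% of gated nuclei and 3.56% of gated UMIs on average over the 10 glands. They held 22.0% of the CTSL, 20.1% of the CTSS and 19.2% of the CTSD UMIs, 12.8% of the CTSB, 9.68% of the TFEB, 8.81% of the CTSC and 7.52% of the LAMP1 UMIs, but 4.75% of the LAMP2 UMIs. Epithelial-gated nuclei held between 58.1% (CTSD) and 71.0% (LAMP2), below their 76.6% of all gated UMIs. The UMIs of all glands were also summed, so that glands with more UMIs of a gene counted for more. The epithelial share of the gated UMIs was then 41.7% for CTSD, 46.1% for CTSL, 49.9% for CTSS and 52.1% to 71.3% for the other 5 genes. The macrophage share was 35.0% for CTSL, the highest of the 8 genes, 29.7% for CTSD and 26.5% for CTSS. L20 replicate 2 held 301 of the 454 macrophage-gated CTSL UMIs, and no share over all genes was summed in this way. Without L20 replicate 2, macrophage-gated nuclei averaged 2.60% of gated nuclei and 2.05% of gated UMIs, and held 5.18% of the CTSC, 15.7% of the CTSD, 15.7% of the CTSS and 17.3% of the CTSL UMIs. The macrophage share differed widely between glands. For CTSS it was 6.61% and 5.12% in the L0 glands, 14.8% and 59.4% in the L20 glands, 14.1% and 14.8% in the PI2 glands and 36.0% and 27.2% in the PI7 glands, and for CTSD it was 6.14% and 5.64%, 22.4% and 50.9%, 7.98% and 13.5%, and 35.4% and 30.2% in the same order. L20 replicate 2 and both PI7 glands were the high ones for both genes. The macrophage share of all gated UMIs itself ran from 0.226% to 17.1% over the 10 glands, with a median of 1.55%. Its part in the spread of these shares was not tested.

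**Figure D2:**
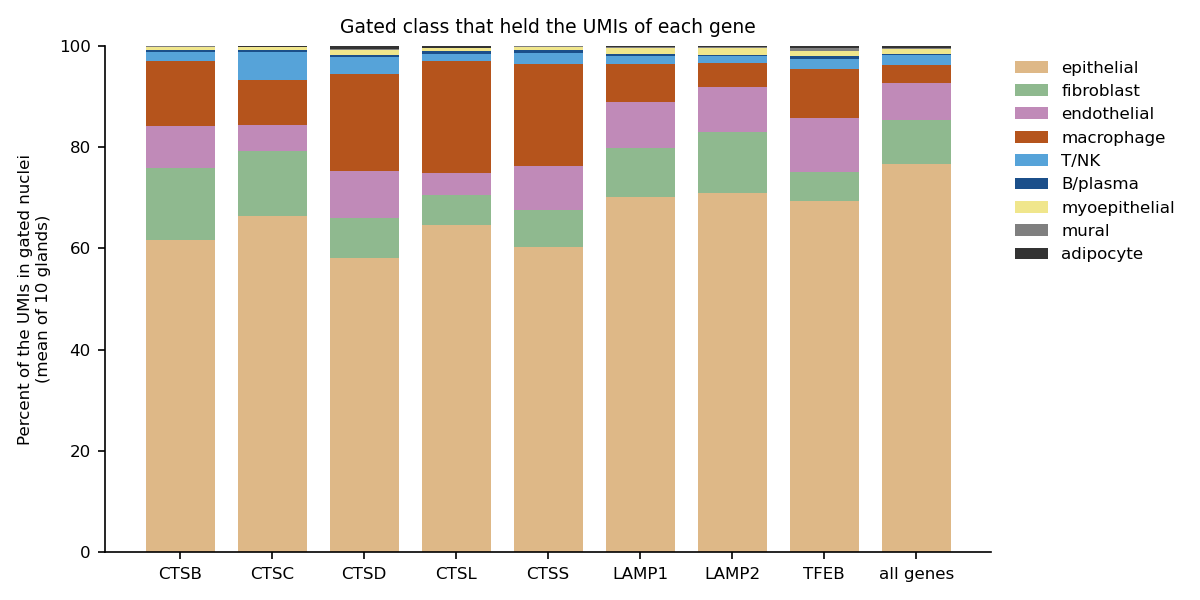
Stacked bars show, for each gene and for all genes together, the percent of UMIs of gated nuclei that came from each class, as the mean of 10 glands. The macrophage segment is widest for CTSL (22.0%), CTSS (20.1%) and CTSD (19.2%) and is 3.56% for all genes.

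The list of 91 other genes of the lysosome, of which 84 have a row in the count tables, showed where these 8 genes stand. Of 78 genes of this list tested between macrophage-gated and epithelial-gated nuclei, 37 were called higher (47.4%, against 12.6% of all genes) and 4 lower (5.13%, against 15.8%), with a median log2 difference of 0.87 against -0.17 over all genes. The 3 with the lowest p were LIPA, the acid lipase (3.63 ± 0.18), SLC11A1, an ion transporter of the phagosome (4.92 ± 0.29), and CTSZ, a carboxypeptidase (3.52 ± 0.21). By role, 5 of 7 other cathepsins were higher and 1 was lower, and 16 of 30 hydrolases and cofactors were higher. Of 13 membrane and transport genes 7 were higher and 1 was lower. Of 15 acidification genes, a group that includes the proton pump, 5 were higher, and of 2 cystatins 1 was higher. Of 5 sorting genes none was higher and 1 was lower. Of the 6 relatives and partners of TFEB, 3 were higher and 1 was lower. The 4 lower genes were SORT1 (-2.15), a sorting receptor, RRAGD (-1.80), a GTPase that brings TFEB to the lysosome, CTSV (-1.80), a cathepsin close to CTSL, and LAPTM4B (-1.42).

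In the other class comparisons 78 genes of the list were tested each time. Fibroblast-gated nuclei had 16 higher (20.5%) and 4 lower (5.13%) than epithelial-gated nuclei, among them LIPA (1.64 ± 0.17) and CD63 (1.61 ± 0.20). Of all genes 13.3% were called higher and 12% lower there, and the median of the list was 0.26 against -0.18 over all genes. Endothelial-gated nuclei had 12 higher and 7 lower, among them LAPTM5 (3.08 ± 0.26) and SORT1 (-2.69 ± 0.26). The share of the list called higher there was 15.4%, near the 13.8% of all genes, and the median was 0.07 against -0.15. Macrophage-gated nuclei had 36 higher (46.2%, against 10.4% of all genes) and 4 lower (5.13%, against 13.1%) than fibroblast-gated nuclei, led by SLC11A1 (4.50 ± 0.33), CD68 (4.36 ± 0.36) and TFEC, a relative of TFEB (5.06 ± 0.42), and the median was 0.88 against 0.00 over all genes.

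Across the 5 stages, whole-gland levels of CTSB, CTSD and LAMP1 were higher in all glands from L20 on than in the glands of G90 and L0. No gene passed the call rule in any of the 5 stage comparisons by edgeR, among 22695 tested (0% called), so none of the 8 genes was called. The number of genes at an unadjusted p under 0.05 was 1652 for L0 against G90, 2912 for L20 against L0, 817 for PI2 against L20, 464 for PI7 against PI2 and 1568 for involution (PI2 and PI7) against lactation (L0 and L20). DESeq2 called 378, 1118, 25, 15 and 186 genes in these comparisons. Those included CTSB, CTSD, CTSL, CTSS and LAMP1 from L0 to L20, 5 of 8 where DESeq2 called 3.89% of all genes with a UMI, and CTSL from L20 to PI2. DESeq2 was run without the filter on low counts, so its percents are of more genes than those of edgeR. Sows are the replicates, with 2 per stage and a biological coefficient of variation of 0.531 in this fit. In sums over a gland, fewer cells of a type and less RNA per cell cannot be told apart.

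CTSD was at 37.3 and 17.0 CPM at G90, 24.3 and 12.1 CPM at L0, 339 and 272 CPM at L20, 73.2 and 102 CPM at PI2 and 521 and 428 CPM at PI7. Both L20 and both PI7 glands lay above all other glands, and the PI2 glands lay between. The log2 change from L0 to L20 was 3.62 ± 0.58 with an adjusted p of 0.14 by edgeR, and the adjusted p ranged from 2.0e-06 to 0.81 over 18 settings. The changes between L20 and PI2 (-1.55 ± 0.54) and between PI2 and PI7 (2.05 ± 0.55) had adjusted p-values of 0.83 and 1.0 by edgeR.

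CTSL was at 5.71 and 4.14 CPM at G90, 1.82 and 1.31 CPM at L0, 22.4 and 39.7 CPM at L20, 3.43 and 5.45 CPM at PI2 and 6.69 and 8.39 CPM at PI7. It was highest in the 2 L20 glands and lowest in the 2 L0 glands, with no overlap. The log2 change from L0 to L20 was 3.73 ± 0.63 (adjusted p = 0.14 by edgeR) and from L20 to PI2 -2.43 ± 0.59 (adjusted p = 0.83 by edgeR).

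CTSB was at 62.5 and 19.3 CPM at G90, 50.4 and 36.8 CPM at L0, 249 and 329 CPM at L20, 152 and 274 CPM at PI2 and 303 and 296 CPM at PI7. All 6 glands from L20 on lay above the 4 glands of G90 and L0. The log2 change from L0 to L20 was 2.20 ± 0.55 (adjusted p = 0.18 by edgeR). CTSS was at 74.5 and 89.7 CPM at G90, 44.6 and 46.2 CPM at L0, 159.7 and 304 CPM at L20, 84.1 and 71.7 CPM at PI2 and 389 and 292 CPM at PI7. The L20 and PI7 glands were high and both PI2 glands lay within the range of G90 or just below it. Its log2 change was 1.76 ± 0.46 between L0 and L20, -1.21 ± 0.45 between L20 and PI2 and 1.75 ± 0.46 between PI2 and PI7, with adjusted p-values of 0.19, 0.83 and 1.0 by edgeR.

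CTSC was at 47.6 and 31.8 CPM at G90, 81.0 and 61.5 CPM at L0, 209 and 214 CPM at L20, 75.1 and 534 CPM at PI2 and 146 and 139 CPM at PI7. The 2 PI2 glands were the widest apart of any stage and held both the highest level of all and one within the range of L0. LAMP1 was at 58.7 and 38.0 CPM at G90, 28.7 and 23.4 CPM at L0, 126 and 111 CPM at L20, 68.8 and 90.4 CPM at PI2 and 138 and 113 CPM at PI7. Both L0 glands lay below all others, and the log2 change from L0 to L20 was 1.71 ± 0.48 (adjusted p = 0.21 by edgeR).

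LAMP2 was at 68.7 and 38.0 CPM at G90, 51.8 and 46.4 CPM at L0, 61.2 and 142 CPM at L20, 84.9 and 50.5 CPM at PI2 and 179.9 and 121 CPM at PI7. TFEB was at 33.5 and 13.5 CPM at G90, 14.8 and 20.6 CPM at L0, 26.2 and 32.5 CPM at L20, 53.7 and 15.4 CPM at PI2 and 33.2 and 43.0 CPM at PI7. For both genes neighbouring stages overlapped or came within the distance between 2 sows of a stage, apart from the PI7 glands of LAMP2, of which 1 lay above every other gland. TFEB, the regulator, had no stage comparison with an unadjusted p under 0.05 by edgeR, and neither had LAMP2 or CTSC.

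**Figure D3:**
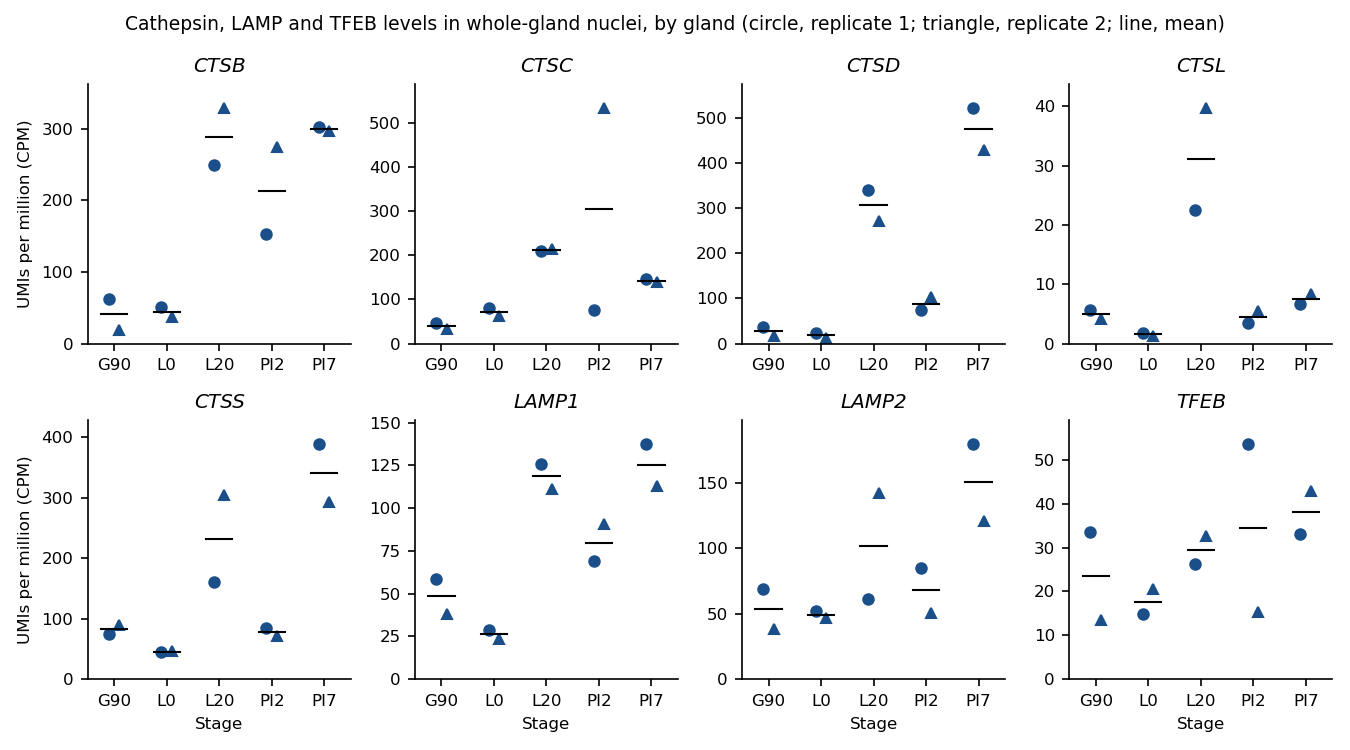
Each panel shows 1 gene as CPM over all kept nuclei of a gland, by stage, with a circle for replicate 1, a triangle for replicate 2 and a line at their mean. CTSD and CTSS are highest at L20 and PI7, and CTSB is high from L20 on. CTSL is high at L20 (22.4 and 39.7 CPM), and the PI2 glands of CTSC lie at 75.1 and 534 CPM.

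For involution against lactation the outcome depended on L20. With L0 and L20 together as lactation, CTSD differed by 1.28 ± 0.38 and CTSB by 1.05 ± 0.38 on the log2 scale, with adjusted p-values of 0.60 and 0.65 by edgeR. With L0 alone as lactation, CTSD differed by 3.03 ± 0.51 and was called (adjusted p = 0.032 by edgeR), as were 175 of 21876 genes (0.8%). In that fit CTSB differed by 2.09 ± 0.52 (adjusted p = 0.086), LAMP1 by 1.47 ± 0.41 (adjusted p = 0.11), CTSS by 1.36 ± 0.42 (adjusted p = 0.14) and CTSL by 1.45 ± 0.60 (adjusted p = 0.25) by edgeR, and none of these was called. CTSD of the 4 involution glands lay between 73.2 and 521 CPM, above both L0 glands and overlapping both L20 glands.

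The sum of the macrophage markers was highest in the L20 and PI7 glands, as were CTSD and CTSS. Over all nuclei it was 228 and 72.0 CPM at G90, 118 and 66.6 CPM at L0, 382 and 1648 CPM at L20, 187 and 213 CPM at PI2 and 644 and 619 CPM at PI7, with 11 of 11 markers detected in every gland. The PI2 sums lay between those of the G90 glands. CTSB, CTSC, CTSD and LAMP1 were higher in both PI2 glands than in both G90 glands, and CTSL, CTSS, LAMP2 and TFEB overlapped between these stages. Within L20 the gland with the higher marker sum had the higher CTSB, CTSC, CTSL, CTSS, LAMP2 and TFEB and the lower CTSD and LAMP1. The part of the marker sum in the whole-gland levels was not tested there, and the levels within gated classes follow.

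Within epithelial-gated nuclei CTSD was at 21.5 and 14.0 CPM at G90, 15.7 and 9.93 CPM at L0, 187 and 71.3 CPM at L20, 40.9 and 75.2 CPM at PI2 and 189.5 and 119 CPM at PI7. All 6 glands from L20 on lay above the 4 earlier glands. CTSB had the same split, at 33.7 and 12.3 CPM at G90, 35.9 and 31.0 CPM at L0, 202 and 136 CPM at L20, 115 and 272 CPM at PI2 and 139 and 138 CPM at PI7. So had LAMP1, at 20.7 to 49.1 CPM in the 4 earlier and 59.0 to 105.7 CPM in the 6 later glands. From L0 to L20 the log2 change was 3.12 ± 0.68 for CTSD, 2.06 ± 0.61 for CTSB, 2.67 ± 0.71 for CTSL and 1.64 ± 0.51 for LAMP1, with adjusted p-values between 0.18 and 0.27 by edgeR. None of 19535 genes was called in that comparison or in the 3 other comparisons after L0 (0%), and 1 gene, none of the 8, was called higher at L0 than at G90 (0.00512%). For L20 against L0, 2275 genes had an unadjusted p under 0.05 by edgeR. DESeq2 called 677 genes, CTSB, CTSD and CTSL among them, which was 2.45% of the larger number of genes with a UMI.

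Without L20 replicate 1 the epithelial changes from L0 to L20 became 1.60 for CTSD, 1.15 for CTSB, 1.50 for CTSL and 0.64 for LAMP1. CTSC of epithelial-gated nuclei was at 26.3 and 28.1 CPM at G90, 75.5 and 59.0 CPM at L0, 186 and 109 CPM at L20, 44.7 and 569 CPM at PI2 and 90.3 and 89.3 CPM at PI7. The change from PI2 to PI7 (-2.30 ± 0.95, adjusted p = 0.98 by edgeR) rested on PI2 replicate 2, and without that gland it was 0.81. Epithelial-gated LAMP2 was at 31.7 to 144 CPM and TFEB at 11.5 to 45.3 CPM, and no stage lay wholly above or below all the others except PI7 for LAMP2, where 87.1 and 144 CPM exceeded the other glands.

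For involution against lactation within epithelial-gated nuclei, CTSD differed by 0.98 ± 0.45 (adjusted p = 0.56) and CTSB by 0.95 ± 0.42 (adjusted p = 0.55) by edgeR, and neither was called. With L0 alone as lactation CTSD differed by 2.45 ± 0.46 and was called (adjusted p = 0.038 by edgeR), as were 253 of 19127 genes (1.32%). CTSB differed there by 1.89 ± 0.52 (adjusted p = 0.10) and LAMP1 by 1.45 ± 0.39 (adjusted p = 0.10) by edgeR. In the same epithelial-gated nuclei the 11 macrophage markers, all detected in every gland, summed to 55.2 and 30.7 CPM at G90, 68.9 and 38.6 CPM at L0, 159.1 and 162 CPM at L20, 67.4 and 143 CPM at PI2 and 178 and 172 CPM at PI7. This sum was thus also higher in both L20 glands, both PI7 glands and PI2 replicate 2 than in the other 5 glands, and its part in the epithelial levels was not tested.

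Within macrophage-gated nuclei the cathepsins had no common course. CTSD was at 171 and 466 CPM at G90, 536 and 236 CPM at L0, 2014 and 589 CPM at L20, 512 and 934 CPM at PI2 and 1700 and 1653 CPM at PI7. Both PI7 glands and L20 replicate 1 stood above the other glands. The log2 change from L0 to L20 was 1.99 ± 0.73 (adjusted p = 0.48 by edgeR), and 0.75 without L20 replicate 1. CTSS, in contrast to its whole-gland level, was no lower at L0 (1170 and 817 CPM) than at L20 (709 and 815 CPM), and reached 1502 and 1445 CPM at PI7.

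CTSB of macrophage-gated nuclei was at 418 and 574 CPM at G90, 1032 and 408 CPM at L0, 722 and 681 CPM at L20, 640.4 and 559.5 CPM at PI2 and 728 and 938 CPM at PI7. The L0 glands thus enclosed all others. CTSC was at 186.6 to 187.3 CPM at G90, below all later glands (240.6 to 496 CPM). CTSL changed by -2.23 ± 0.82 from L20 to PI2 (adjusted p = 0.98 by edgeR), with 3 and 6 UMIs behind the PI2 levels. LAMP2 ranged from 80.3 to 200 CPM. Its L0 glands, with 5 and 4 UMIs, lay below all glands of L20, PI2 and PI7, and both lay between the G90 glands. TFEB ranged from 39.7 to 126 CPM, and its L20 glands (75.2 and 67.6 CPM) lay below all glands of G90, PI2 and PI7 and between the L0 glands. None of 7471 genes was called in any stage comparison (0%), where 211 to 649 had an unadjusted p under 0.05 and DESeq2 called 0 to 27 genes by comparison.

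Within fibroblast-gated nuclei CTSD was at 31.9 and 8.64 CPM at G90, 66.1 and 47.6 CPM at L0, 373 and 125 CPM at L20, 83.3 and 85.4 CPM at PI2 and 344 and 245 CPM at PI7. The L20 and PI7 glands lay above all others, as in whole glands, but both L0 glands lay above both G90 glands here. Its log2 change was 2.13 ± 0.70 between L0 and L20, -1.64 ± 0.61 between L20 and PI2 and 1.72 ± 0.61 between PI2 and PI7, and that of CTSS between PI2 and PI7 was 1.57 ± 0.53, with adjusted p-values from 0.74 to 1.0 by edgeR. None of 11185 genes was called (0%), where 250 to 656 had an unadjusted p under 0.05 and DESeq2 called 0 to 27 genes by comparison. CTSL did not pass the filter on low counts in this class, and the other 7 genes did. The L0 levels of CTSD rested on 13 and 2 UMIs. The macrophage markers, of which 1 to 11 of 11 were detected by gland, summed to 46.1 to 206 CPM in fibroblast-gated nuclei and were highest at PI7 (206 and 170 CPM) and L20 (193 and 155 CPM), and their part in these levels was not tested.

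Whether the involution change differed between macrophage-gated and epithelial-gated nuclei was tested as an interaction. None of the 8 genes was called, where 60 of 16761 genes were (0.358%). CTSB had an interaction of -0.80 ± 0.36 (adjusted p = 0.68) and LAMP1 one of -0.92 ± 0.41 (adjusted p = 0.67) by edgeR, with an unadjusted p under 0.05 each. With L0 alone as lactation CTSB had an interaction of -1.49 ± 0.44 (adjusted p = 0.053) and LAMP1 one of -1.27 ± 0.57 (adjusted p = 0.40) by edgeR, and again none of the 8 was called, where 219 of 17248 genes were (1.27%). A difference between the classes in the course of these genes was thus not shown.

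The other lysosome genes gave no call either, with L0 and L20 together as lactation. From L0 to L20 the 82 genes tested in whole glands had a median log2 change of 0.33, close to the 0.24 of all genes, and the lowest p-values were those of SLC11A1 (4.23 ± 0.75) and TFEC (3.97 ± 0.74), both with an adjusted p of 0.14 by edgeR. From PI2 to PI7 they were those of ATP6V0D2, a subunit of the proton pump (4.80 ± 0.87, adjusted p = 0.95), and of ACP5, the tartrate-resistant acid phosphatase of macrophages and osteoclasts (5.11 ± 1.14, adjusted p = 1.0), by edgeR. From G90 to L0 they were SORT1 (3.16 ± 0.63, adjusted p = 0.24) and RRAGD (2.13 ± 0.54, adjusted p = 0.32) by edgeR. Within epithelial-gated nuclei SORT1 changed by 3.16 ± 0.43 (adjusted p = 0.098) and RRAGD by 1.84 ± 0.39 (adjusted p = 0.14) between these stages, by edgeR. For involution against lactation the lowest p-values in whole glands were those of GM2A (1.51 ± 0.36, adjusted p = 0.58) and ACP5 (2.70 ± 0.73, adjusted p = 0.59) by edgeR, and the median was 0.27 against 0.03 over all genes. With L0 alone as lactation the median was 0.44 against 0.06, and GM2A (2.44 ± 0.48, adjusted p = 0.046) and RRAGD (-2.365 ± 0.37, adjusted p = 0.027) were called by edgeR, 2 of 82 where 0.8% of all genes were. RRAGD was also called in epithelial-gated nuclei in that setting (-2.06 ± 0.33, adjusted p = 0.025 by edgeR), 1 of 81 where 1.32% of all genes were. From L20 to PI2 they were TFEC (-3.10 ± 0.71) and ATP6V0D2 (-3.13 ± 0.81), each with an adjusted p of 0.83 by edgeR.

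Over 69 profiles, 1 for each class and gland with at least 20 nuclei, the levels of CTSB, CTSD and LAMP1 were most alike, with Pearson's r on log2(CPM + 1) of 0.76 for CTSB and CTSD, 0.76 for CTSD and LAMP1 and 0.74 for CTSB and LAMP1. CTSC was least like LAMP2 and TFEB, with r of -0.05 for each. These profiles share glands and depth, and r is given as a description. Among 12443 genes, the profile nearest to that of CTSS was MOB1A (r = 0.80), followed by GALNT10 (0.74) and MRC1 (0.72). CTSL was nearest to SLC11A1 (0.72), CD163 (0.72) and CASP1 (0.70), CTSD to FTL (0.77), LAMP1 and CTSB, and LAMP1 to TMSB10 (0.77), IRAK3 (0.76) and CTSD. CTSB was nearest to CTSD, NAV3 (0.76) and LAMP1, CTSC to TMEM50B (0.76), CFLAR (0.76) and TMCO1 (0.71), LAMP2 to IL13RA1 (0.76) and IRF2BP2 (0.75), and TFEB to BTBD7 (0.69), TAB3 (0.65) and TASOR2 (0.65). MRC1 and CD163 were among the markers of the macrophage gate.

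In milk, CTSL stood out among the 8 genes. Its level over all cells was 75.2 CPM at L0 and 2050 CPM at L20, 27.3-fold higher at L20 (95% interval 26.6 to 28.0). With 1 library at each stage there is no replicate check, no test was made, and all intervals of milk and sections cover counting error only. The L0 library held 17571 cells and 80995806 UMIs, and the L20 library 14514 cells and 42948881 UMIs. They shared 284 barcodes, 1.52% of the smaller library.

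The other cathepsins of milk were also higher at L20. CTSD was at 429 and 2744 CPM, 6.40-fold higher (6.32 to 6.47), CTSC at 97.0 and 572 CPM (5.89-fold, 5.75 to 6.04), CTSS at 346 and 1743 CPM (5.04-fold, 4.98 to 5.12) and CTSB at 352 and 1335 CPM (3.80-fold, 3.74 to 3.85). LAMP2 was 3.17-fold higher (81.6 against 258 CPM at L20) and LAMP1 2.29-fold higher (185 against 423 CPM). TFEB was 1.73-fold higher (1.58 to 1.89), at 13.1 and 22.6 CPM. Thus 7 of 8 genes were over 2-fold higher, where 14.1% of 17029 genes were. Of 81 other lysosome genes 49 were over 2-fold higher and 3 were over 2-fold lower, with a median log2 ratio of 1.26 against -0.09 over all genes.

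The makeup of the 2 milk libraries differed, so the levels were also taken within gated cells. The 11 macrophage markers summed to 1014 CPM at L0 and 1999 CPM at L20 over all cells, and the 12 epithelial markers to 2985 and 2053 CPM. Cells with markers of several classes made up 51.2% at L0 and 32.5% at L20 and entered no class. These cells held 90.8% of the CTSL UMIs at L0 and 88.3% at L20, and macrophage-gated cells 3.47% and 5.34%, so the gated values cover a small part of the RNA behind the levels over all cells. Of the UMIs of the other 7 genes, cells with markers of several classes held between 51.4% (TFEB at L20) and 87.8% (CTSD at L0). In macrophage-gated cells, 655 at L0 and 864 at L20, CTSL was at 186 and 1650 CPM, 8.87-fold higher at L20 (7.73 to 10.2), CTSD at 1211 and 4595 CPM (3.79-fold, 3.59 to 4.01) and CTSS at 1279 and 3496 CPM (2.73-fold, 2.59 to 2.89). CTSC was 1.86-fold, CTSB 1.54-fold, LAMP2 1.49-fold and LAMP1 1.23-fold higher, and the ratio for TFEB was 0.796 with an interval of 0.569 to 1.12, which includes 1. There 3 of 8 genes were over 2-fold higher, where 25.3% of 8664 genes were, and 34 of 74 other lysosome genes were over 2-fold higher and 0 lower.

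In neutrophil-gated cells, 4704 at L0 and 3769 at L20, CTSL was at 26.1 and 879 CPM, 33.6-fold higher at L20 (28.6 to 39.9). CTSC was 4.41-fold (3.96 to 4.93), CTSS 2.62-fold and LAMP2 1.90-fold higher, whereas CTSB (0.871, 0.802 to 0.947) and LAMP1 (0.907, 0.857 to 0.960) were slightly lower. LAMP1 was close to its level of macrophage-gated cells at L0 (495 against 519 CPM) and below it at L20 (449 against 639 CPM), whereas CTSB was several times lower at both stages (238 and 207 CPM against 1599 and 2471 CPM). There 3 of 8 genes were over 2-fold higher, where 7.87% of 9468 genes were, and 14 of 78 other lysosome genes were over 2-fold higher and 9 over 2-fold lower. All 5 neutrophil markers with a row were detected in these cells. The 5 check genes of the macrophage gate summed to 5271 and 4331 CPM in them, so in milk these genes were not particular to macrophage-gated cells.

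Epithelial-gated milk cells, 804 at L0 and 972 at L20, had 9.38 and 52.6 CPM of CTSL (5.61-fold, 4.06 to 7.87) and 50.9 and 98.8 CPM of CTSC (1.94-fold, 1.64 to 2.29). CTSB (0.748), CTSD (0.838) and CTSS (0.737) were lower at L20 and LAMP1 was level at 77.7 and 79.2 CPM (1.02-fold, 0.869 to 1.19). TFEB rested on 28 and 8 UMIs (0.456-fold, 0.180 to 1.03). There 1 of 8 genes was over 2-fold higher, where 6.64% of 10324 genes were, and 6 of 75 other lysosome genes were over 2-fold higher and 6 over 2-fold lower. The macrophage markers summed to 105 and 129 CPM in these cells. CTSL of T/NK-gated cells was at 2.44 CPM at L0 on 1 UMI (interval 0.0617 to 13.6 CPM) and at 41.6 CPM at L20 on 76 UMIs, and the part of free RNA in the levels of the low classes was not tested. Cells that held markers of both macrophages and neutrophils, 5520 at L0 and 3749 at L20, had 142 and 4871 CPM of CTSL, more than either gated class at L20.

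**Figure D4:**
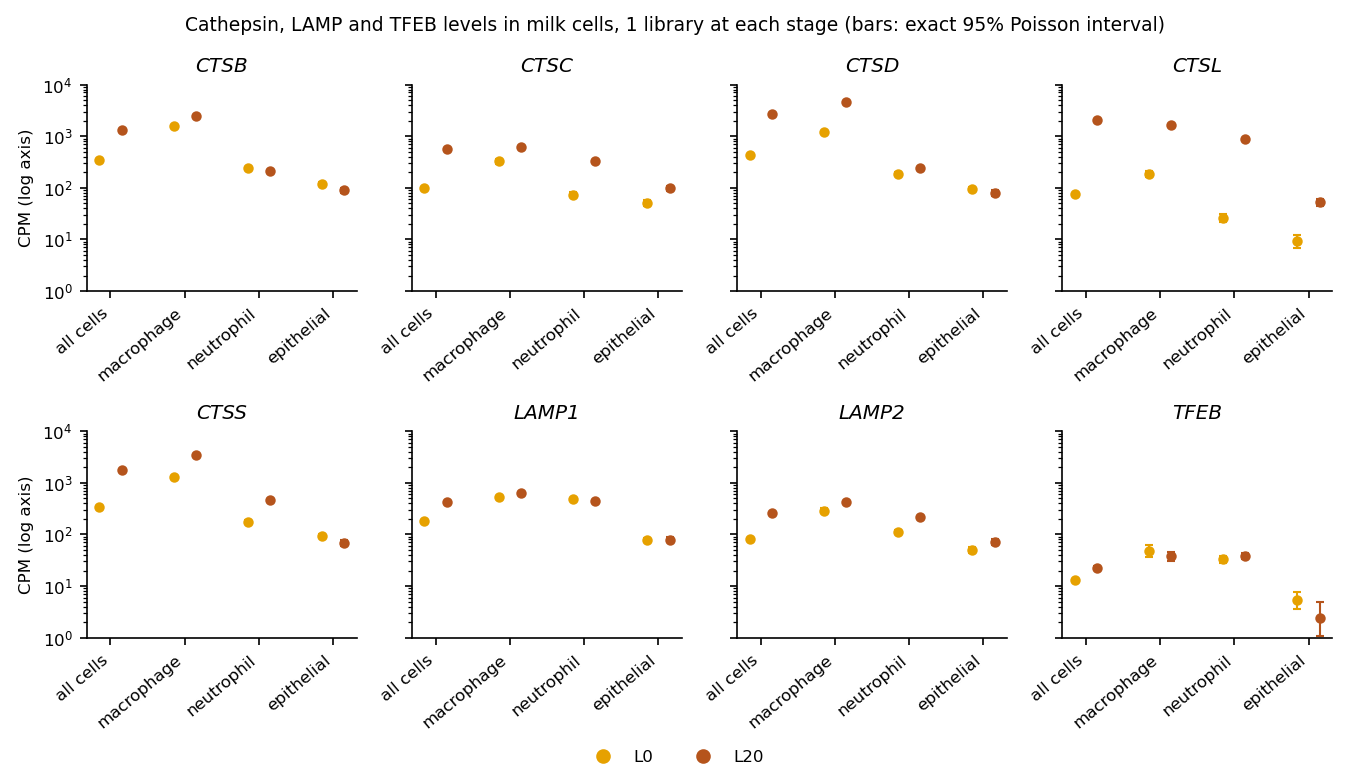
Each panel shows 1 gene as CPM on a log axis in all milk cells and in 3 gated classes at L0 and L20, with exact 95% Poisson intervals that are mostly narrower than the points. CTSL is higher at L20 in every class shown, while TFEB of macrophage-gated and neutrophil-gated cells has overlapping intervals.

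In the tissue sections the largest difference between PI2 and G90 among the 8 genes was that of CTSD. Over all spots CTSD was at 221 CPM at G90 (4721 spots) and 1345 CPM at PI2 (2248 spots), 6.08-fold higher at PI2 (5.94 to 6.23). CTSB was at 139 and 546 CPM (3.93-fold, 3.80 to 4.06), CTSL at 4.27 and 13.4 CPM (3.12-fold, 2.56 to 3.81) and LAMP1 at 128 and 288 CPM (2.25-fold, 2.17 to 2.34). CTSS (1.57-fold), TFEB (1.55-fold) and CTSC (1.2-fold) were higher by less, and LAMP2 was lower (104 and 92.0 CPM, 0.885-fold, 0.836 to 0.937). Thus 4 of 8 genes were over 2-fold higher, where 13.7% of 13428 genes were. Of 80 other lysosome genes 30 were over 2-fold higher and 0 over 2-fold lower, with a median log2 ratio of 0.80 against -0.11 over all genes.

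A spot is a small region that can hold several cells, so the 10% of spots with the highest share of macrophage markers were also taken, 472 at G90 and 225 at PI2. In these spots CTSD was at 284 and 2244 CPM (7.91-fold, 7.31 to 8.57), CTSB at 182 and 762 CPM (4.20-fold, 3.78 to 4.67) and CTSS at 69.7 and 166 CPM (2.38-fold, 1.97 to 2.89). CTSL was at 6.37 and 23.4 CPM on 17 and 38 UMIs (3.68-fold, 2.03 to 6.96). LAMP1 was 2.09-fold higher, CTSC 1.50-fold higher and LAMP2 0.760-fold, while the interval of TFEB (1.29-fold, 0.987 to 1.68) included 1. Thus 5 of 8 genes were over 2-fold higher, where 11.1% of 10184 genes were, and 33 of 76 other lysosome genes were over 2-fold higher and 0 lower. The 11 macrophage markers themselves summed to 608 CPM at G90 and 1584 CPM at PI2 over all spots and to 1539 and 3088 CPM in the selected spots, and their part in these differences was not tested.

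**Figure D5:**
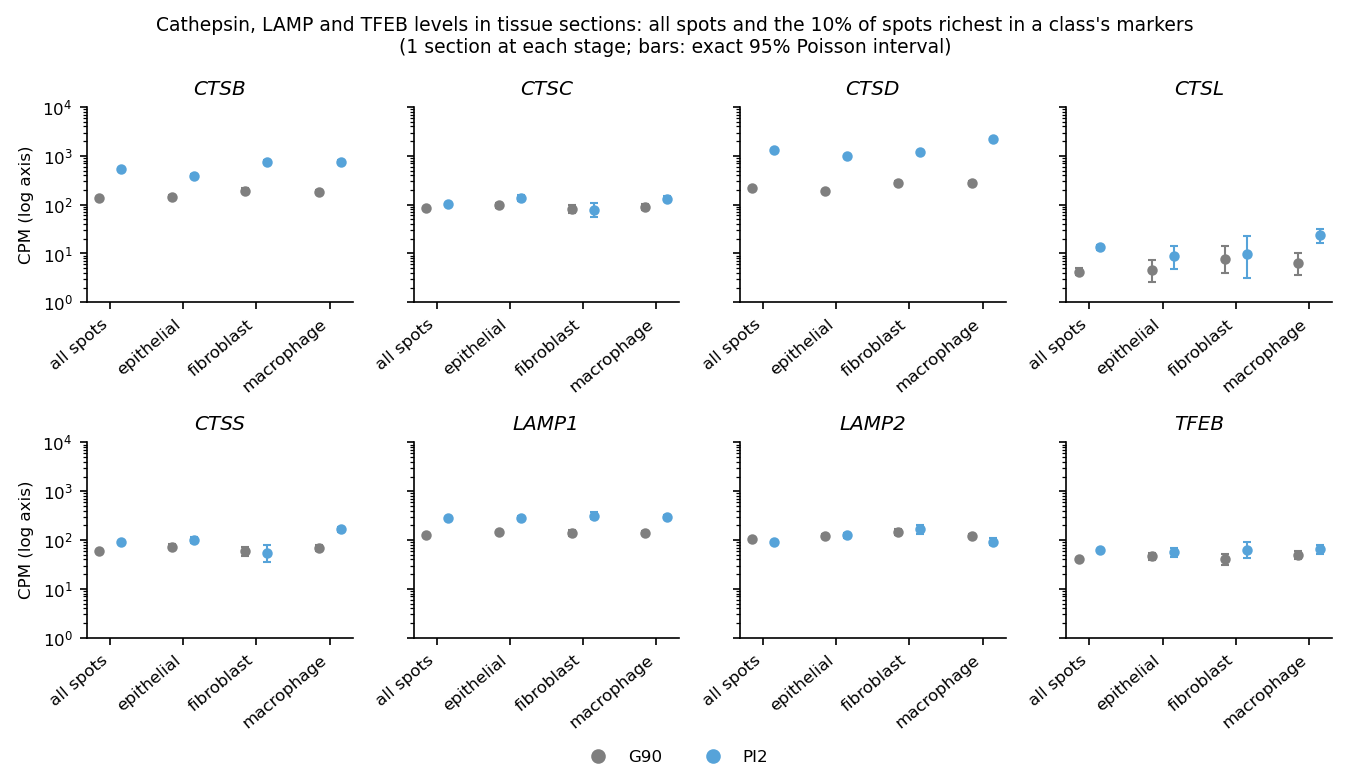
Each panel shows 1 gene as CPM on a log axis over all spots and over the 10% of spots richest in epithelial, fibroblast or macrophage markers, in the G90 and PI2 sections, with exact 95% Poisson intervals. CTSD and CTSB are higher at PI2 in every set of spots, and LAMP2 over all spots is at 104 CPM at G90 and 92.0 CPM at PI2.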

How the data were processed

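Nuclei of 10 glands, cells of 2 milk samples and spots of 2 sections were used. The authors made GEXSCOPE libraries counted with CeleScope on Sscrofa11.1 for nuclei and milk cells and Visium libraries counted with Space Ranger for the sections, and deposited UMI counts per gene and barcode, not normalized. The sources used here do not name the annotation release. Per the labels the tools also included Seurat 4.3.0 and Space Ranger 1.2.0, although the header of the section counts names another release. The CPM levels are scaled to the UMIs of the nuclei, cells or spots in question, and depth sets how many UMIs stand behind them. No ambient RNA was removed from the values used here.

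The genes and lists were chosen with earlier results of these data known. Genes were matched by symbol, CTSK was not analysed here, and positions and promoters were taken from RefSeq (Sscrofa11.1). Barcodes with 300 or more genes and no more than 25% mitochondrial UMIs were kept (126833 of 128233 nuclei, 32085 of 40990 milk cells), all deposited spots were kept, and no doublet caller was run, but barcodes with at least 2 markers of 2 or more classes entered no class. UMIs were summed per gland, and per class in glands with at least 20 nuclei.

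Sums were tested with edgeR 4.0.16 in R 4.3.3 (quasi-likelihood, TMM, filterByExpr) over all genes in 1 fit of the 5 stages, and between classes with the sow as a block and without the genes that made the gates. Genes were called at a Benjamini-Hochberg adjusted p under 0.05 and an absolute log2 fold change over 1. The 2 replicates of a stage are separate sows per the methods, and their numbers pair nothing across stages. Milk and sections have 1 library per stage, so CPM with exact 95% Poisson intervals and ratios with exact conditional binomial intervals are given, for genes with at least 20 UMIs over both libraries. Alternatives were DESeq2 1.42.0, median-of-ratios size factors, no filter on low counts, no fold limit, stricter nuclei, stricter gates, only the glands compared, a replicate block, L0 alone as lactation, and leaving out each gland. All 8 genes are named; of the other lysosome genes the lowest p-values per comparison are named, 3 between classes and 2 otherwise, and the 4 lower in macrophage-gated nuclei were named after their values were seen. Some genes that these rules or the likeness of profiles would name are not reported here. The fits were tested on simulated counts.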

Additional observations from a re-analysis of the deposited data

Results flagged for a closer look

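In 9 of 80 groups of 4 or 10 glands, 1 gland lay far from the rest by Dixon's ratio, the gap to the nearest gland divided by the range of the group. For independent groups from 1 population chance gives this in about 1 of 20. These groups share glands and nuclei and mix stages, so that a stage difference alone can set a gland apart. The 9 therefore cannot be read against that rate. PI2 replicate 2 was apart for CTSC over all nuclei of the involution glands (534 CPM against 75.1 to 146 CPM in the other 3, ratio 0.847), in epithelial-gated nuclei of involution (569 CPM against 44.7 to 90.3 CPM, 0.913) and of all 10 glands (others up to 186 CPM, 0.707), and in endothelial-gated nuclei of all glands (324 CPM against 35.5 to 141 CPM, 0.635). The same gland was apart for CTSB in epithelial-gated nuclei of involution (272 CPM against 115 to 139 CPM, 0.848). L20 replicate 1 was apart for CTSL in epithelial-gated nuclei (13.4 CPM against 1.18 to 7.21 CPM, 0.509) and in fibroblast-gated nuclei (26.4 CPM against 0 to 10.9 CPM, 0.589). LAMP2 was apart in L20 replicate 2 over all nuclei of the lactation glands (142 CPM against 46.4 to 61.2 CPM, 0.845) and in PI7 replicate 1 in epithelial-gated nuclei of all glands (144 CPM against 31.7 to 87.1 CPM, 0.506).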

How the results depend on the processing

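With 2 sows per stage, no stage change of the 8 genes was called by the main test, and depth limits the small classes (2 and 3 UMIs of CTSL in macrophage-gated nuclei of L0). DESeq2 called 5 genes from L0 to L20 in whole glands (3.89% of all genes), 3 in epithelial-gated nuclei (2.45%) and 1 from L20 to PI2 in whole glands (CTSL, 0.0871%). Percents with DESeq2 or without the filter on low counts, here and between classes, are of the genes with a UMI, more than the main test held. Without the filter on low counts, 2 were called from L0 to L20 in whole glands (CTSD and CTSL, among 269 genes) and 1 in epithelial-gated nuclei (CTSD, among 468). With only the glands compared, CTSC was 1 gene called from G90 to L0 in epithelial-gated nuclei, among 1331. L0 alone as lactation gave 1 call, CTSD, in whole glands and in epithelial-gated nuclei. The cause of these moves was not tested. Calls in stage comparisons stayed at 0 to 0 with each gland left out.

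Between classes, macrophage against epithelial kept 7 to 7 calls with each gland left out, and macrophage against fibroblast 4 to 6. Fibroblast against epithelial gave 1 to 4, and 5 with no fold limit (50.3% of all genes), with DESeq2 (17.1%) and with median-of-ratios size factors (25.2%), and 4 with at least 3 markers for the gate (26.8%). Endothelial against epithelial gave 2 to 4, and 6 with no fold limit (52.3%) and with DESeq2 (15.9%), 4 with median-of-ratios size factors (25.9%) and 1 with no filter on low counts (CTSD, 19%). Over all genes DESeq2 called 6211, 4804, 4459 and 3345 in the 4 class comparisons, against 3374, 3006, 3142 and 2795 by edgeR, which tested fewer genes. 

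Deviations of same-numbered glands had r between -0.52 and 0.39 over pairs of stages, with no common sign, so the numbers were not taken as pairs. With 2 glands per stage a negative r means that opposite-numbered glands deviated together, so variation shared between glands is not excluded. A replicate block gave 0 calls in every stage comparison. Without the sow block, the calls were 6 for macrophage against epithelial (CTSC lost), 1 for fibroblast against epithelial, 1 for endothelial against epithelial (CTSS), 6 for macrophage against fibroblast and 0 for the interaction.

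Direction reversed for CTSC from PI2 to PI7 in epithelial-gated nuclei (0.81 without PI2 replicate 2, range -3.08 to 0.81), for TFEB in fibroblast-gated against epithelial-gated nuclei (0.00 without G90 replicate 2, range -0.30 to 0.00), for CTSC in endothelial-gated against epithelial-gated nuclei (0.01 without PI2 replicate 2, range -0.42 to 0.01) and for CTSL there (0.05 with median-of-ratios size factors, 0.00 with 500 or more genes and no more than 5% mitochondrial UMIs, range -0.27 to 0.12 with each gland left out), none of which was called. In whole glands 15 of the 40 stage changes of the 8 genes, called in no setting, had both signs over the settings, 5 of 5 for TFEB, 3 for CTSC (-2.35 to 0.64 from PI2 to PI7, -1.29 to 1.71 from L20 to PI2), 2 each for CTSB and CTSL, 1 each for CTSD, LAMP1 and LAMP2 and 0 for CTSS. TMM left the median of all genes at 0.24 from L0 to L20 and -0.17 from G90 to L0, and total counts at 0.38 and -0.29. A gate by a lead of 2 markers was added after the data had been seen and moved no count of calls by over 1.5 times. The interaction with L0 alone as lactation (0 calls) and macrophage shares with each gland left out were also added then, and L20 replicate 2 moved these shares most.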
